A study of Mus musculus with 6 samples.

Results

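Peroxisomes are small organelles bounded by a single membrane, and 42 genes for their assembly and for the oxidations they carry out were described here in mouse liver with and without the gene Sirt5. The genes were taken by name from the 55536 genes of the deposited table and fall into 13 Pex genes, 23 matrix enzymes and 6 membrane or cytosolic genes of the same pathways. Of the 42 genes, 40 had enough counts to be tested. In Sirt5-/- livers 31 of them were lower and 2, Agps and Far1, were higher, both of which act in the synthesis of ether lipids.

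RNA of 6 male C57BL/6 livers was sequenced, 3 labelled Sirt5+/+ and 3 labelled Sirt5-/-. SIRT5 is a mitochondrial enzyme that removes succinyl, malonyl and related acyl groups from lysines. Mice of both genotypes had been injected hydrodynamically at 4 weeks of age with 50 µg of the plasmid PB[CMV-myc-YAP5SA]DS, which expresses an active form of the co-activator YAP from a CMV promoter, and with 10 µg of Act-PBase, a transposase plasmid, and their livers were taken 20 days later. The 6 livers therefore share YAP5SA and the transposase, and no liver without them was analysed here. Hydrodynamic delivery reaches a part of the hepatocytes, so each library holds RNA of transfected and untransfected cells, and the labels do not say whether Sirt5 is deleted in all tissues or whether each library is 1 animal. Every p-value below thus rests on the spread among these 6 samples, which may in part be technical.

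Peroxins, the products of Pex genes, build the organelle. PEX3, PEX16 and PEX19 place proteins in its membrane, PEX5 and PEX7 carry enzymes from the cytosol to a docking site made with PEX13 and PEX14, RING subunits attach ubiquitin to the used receptor, and an ATPase pulls it back to the cytosol. PEX5 reads a short signal at the carboxyl end of its cargo and PEX7 one near the amino end. In the liver, peroxisomes shorten very long chain fatty acids and bile acid precursors by beta-oxidation, remove a carbon from phytanic acid by alpha-oxidation, oxidise urate and glycolate, break down the hydrogen peroxide that these steps release with catalase, and carry out the first steps of ether lipid synthesis.

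Levels are given as CPM, counts scaled to a common library total with TMM factors for library composition, and the 2 genotypes were compared with edgeR's quasi-likelihood F test with p-values adjusted over 14799 tested genes. Library totals ran from 19307808 to 24330797 counts, and 3 counts in a library, taken as the floor, equal 0.0827 to 0.393 CPM. Sirt5 was at 16.7, 15.7 and 12.6 CPM in the Sirt5+/+ libraries and at 0.816, 1.2405 and 0.497 CPM in the Sirt5-/- libraries, as labelled. The third Sirt5+/+ library stood apart. Mitochondrially encoded genes took 46.4% of its counts but 7.20 and 6.58% of those of the first and second Sirt5+/+ libraries, while the Sirt5-/- livers had 40.8, 21.5 and 17.5%, and the TMM factor of the third Sirt5+/+ library was the lowest at 0.396, in a range that reached 1.68. It was the Sirt5+/+ library nearest to the Sirt5-/- mean for 27 of the 40 tested genes. Without it, 33 of the 40 were called lower and 2 higher, against 23.4 and 25.6% of all genes.

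The 31 genes called lower and the 2 called higher stand against a background of 17.1% of all tested genes called lower and 17.4% called higher, since 34.5% of the 14799 genes differed between the genotypes. In 34 of the 40 every Sirt5-/- library lay below every Sirt5+/+ library, as in 24.0% of all genes, and in 30 the call came with a fall of at least 2-fold, as in 14.3% of all genes. The median log2 change of all tested genes was -0.08. How far the genes were set apart rested on the scaling. With library totals in place of TMM factors, which moved the median of all genes to 0.60, 9 stayed lower and both of the higher ones stayed higher, against 2.2 and 16.5% of all genes. In TPM, the deposited values per length and library total, Acot4 alone was lower in every Sirt5-/- library than in every Sirt5+/+ library (1.37% of all genes were), and 34 genes were when Sirt5+/+ replicate 3 was left out (27.0% of all genes). Agps and Far1 were higher in every Sirt5-/- library than in every Sirt5+/+ library in TPM, as were 21.5% of all genes.

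**Figure D1:**
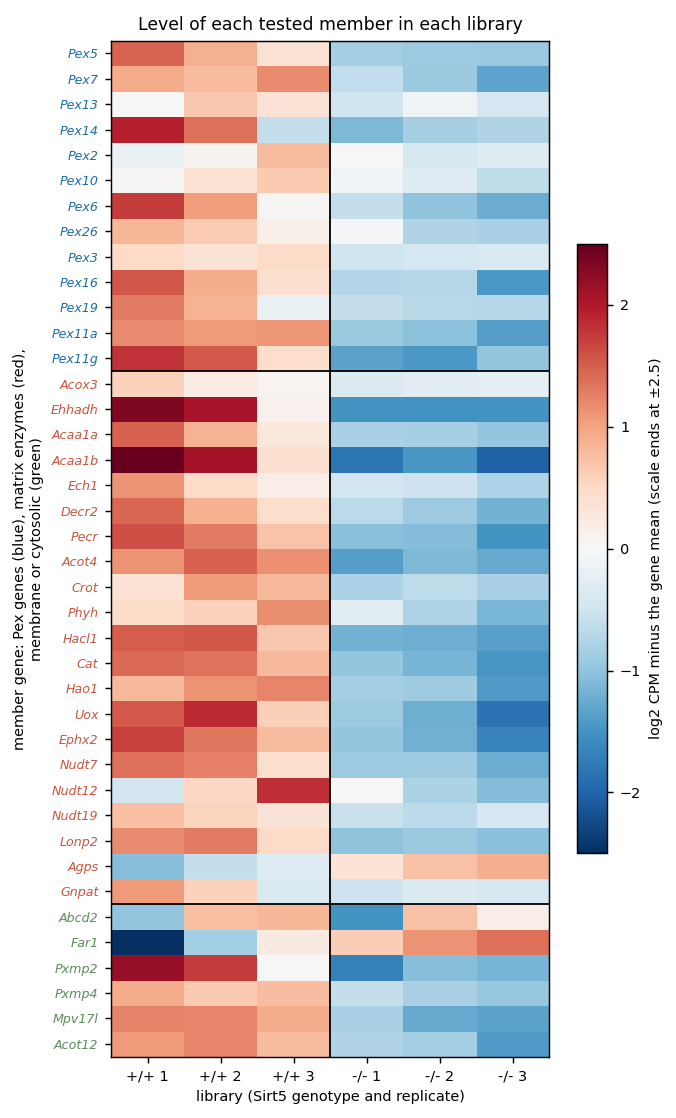
Level of the 40 tested genes (rows) in the 6 libraries (columns), as log2 CPM minus the gene's mean over libraries. Most rows are higher (red) in the Sirt5+/+ libraries, paler in Sirt5+/+ replicate 3, and lower (blue) in the Sirt5-/- libraries; Agps and Far1 run the other way.

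**Figure D2:**
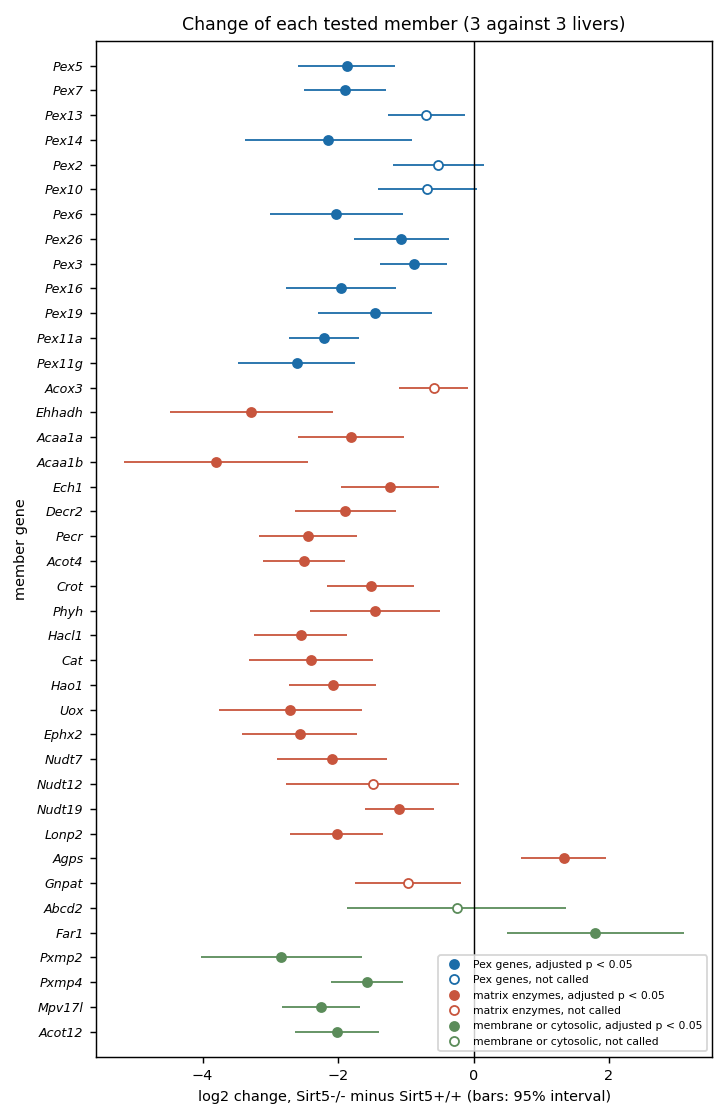
Log2 change of each tested gene, Sirt5-/- minus Sirt5+/+, with its 95% interval; filled points are called at an adjusted p under 0.05. The called changes run from -3.80 for Acaa1b to 1.80 for Far1, and 7 genes are not called.

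The last 30 coding bases of the 42 genes were read from the GENCODE M21 annotation on GRCm38 to look for a carboxyl-terminal targeting signal. The pattern searched was a strict form of the signal read by PEX5. It is a serine, alanine or cysteine, then a lysine, arginine or histidine, then a leucine or methionine. Codons for that pattern ended 13 of the 23 matrix genes (56.5%), 0 of the 13 Pex genes and 0 of the 6 membrane or cytosolic genes, and 112 of 21662 protein-coding genes (0.517%). Below, the last 9 bases, which code for the last 3 residues, are in capitals, and the stop codon is left out. The first 5 sequences match the pattern.
Ehhadh, chr16:21762087-21762116, minus strand: agcttggcaggaccccatagcAGCAAACTG
Pecr, chr1:72259351-72259380, minus strand: aaggaatcttttaagaagaaaGCCAAGCTC
Uox, chr3:146630575-146630604, plus strand: acagtcaagaggaagctgcctTCCAGGCTG
Acot4, chr12:84043764-84043793, plus strand: agtacccacagcagagcctccTGTAGACTG
Ech1, chr7:28832076-28832105, plus strand: gacacaaaaagcatcaccttcTCCAAGCTC
The next pair are a catalase and an oxidase that end in a leucine but lack the pattern's middle residue.
Cat, chr2:103454759-103454788, minus strand: cacatggctgcgaagggaaaaGCTAACCTG
Acox3, chr5:35612102-35612131, plus strand: tctgtagccgacaggctaaagTCCCAGCTG
The last group are enzymes known to carry the amino-terminal signal read by PEX7.
Acaa1a, chr9:119350001-119350030, plus strand: gctgctgcggtctttgaatacCCTGGGAAC
Acaa1b, chr9:119148341-119148370, minus strand: gctgctgcggtctttgaatacCCTGGGAAC
Phyh, chr2:4938328-4938357, plus strand: cgacttgtgaaaggagaaagaATAAACATT
Agps, chr2:75926011-75926040, plus strand: agtaacatctttggaaacagaAACCTTTTA
The 2 thiolase genes Acaa1a and Acaa1b are identical over these 30 bases. Of the 11 tested matrix genes with the pattern 10 were lower, with a median log2 change of -2.02. Of the 10 without it 7 were lower and 1 higher, with a median of -1.95. An enzyme without this strict pattern may still be read by PEX5, so the split is not one of import routes. Among the genes of the PEX7 route, Acaa1a, Acaa1b and Phyh fell and Agps rose.

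Both import receptors were lower in Sirt5-/- livers. Pex5, the receptor for the carboxyl-terminal signal, was at 108, 72.8 and 50.3 CPM in Sirt5+/+ and at 21.7, 20.95 and 20.5 CPM in Sirt5-/-, a log2 change of -1.87 ± 0.31 (SE, n = 3 and 3, edgeR quasi-likelihood adjusted p = 0.00364). Pex7, the receptor for the amino-terminal signal, was at 44.0, 39.4 and 52.7 CPM against 15.05, 12.1 and 9.30 CPM, a log2 change of -1.90 ± 0.26 (edgeR adjusted p = 0.00221). For both receptors all 3 Sirt5-/- libraries lay below all 3 Sirt5+/+ libraries in CPM. The order of the Sirt5+/+ libraries differed, with Sirt5+/+ replicate 3 lowest for Pex5 and highest for Pex7. In TPM, however, Pex7 was at 28.2, 35.7 and 1.95 in Sirt5+/+ replicates 1 to 3 and at 1.63, 5.64 and 4.68 in Sirt5-/-. The genotypes thus overlapped on that scale, for Pex7 and also for Pex5.

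The docking pair differed in how clear the change was. Pex14, the membrane anchor of docking, was at 58.2, 39.4 and 10.1 CPM in Sirt5+/+ and 6.94, 8.55 and 8.97 CPM in Sirt5-/-, so Sirt5+/+ replicate 3 came close to the Sirt5-/- livers without overlapping them. Its log2 change was -2.14 ± 0.54 (edgeR adjusted p = 0.0166). Pex13, its partner, was at 18.2, 29.1 and 23.5 CPM against 13.01, 16.9 and 13.7 CPM and did not pass the test, with a log2 change of -0.70 ± 0.25 (edgeR adjusted p = 0.0618). Of the 31-base words of the Pex14 transcripts, 26.5% also occur in Gm17029 on the other strand, which had 0 to 15.1 counts per library.

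The RING subunits Pex2 and Pex10, which ubiquitinate the receptor, did not pass the test. Pex2 was at 19.9, 23.9 and 38.7 CPM in Sirt5+/+ and 22.2, 17.0 and 18.03 CPM in Sirt5-/-, with overlapping genotypes and a 95% interval of the log2 change from -1.19 to 0.15. Pex10 was at 4.18, 5.25 and 6.42 CPM against 3.91, 3.28 and 2.65 CPM, with no overlap and an interval from -1.41 to 0.05. These intervals include falls of more than 2-fold. By contrast, the genes for receptor export fell. Pex6, an ATPase subunit, went from 101, 62.0 and 30.9 CPM to 19.9, 15.02 and 12.8 CPM, a log2 change of -2.03 ± 0.43 (edgeR adjusted p = 0.00825). Pex26, which anchors that ATPase to the membrane, went from 16.9, 14.7 and 10.5 CPM to 9.21, 5.68 and 5.44 CPM, a smaller log2 change of -1.07 ± 0.31 (edgeR adjusted p = 0.0276).

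All 3 genes for inserting membrane proteins fell, by unequal amounts. Pex16, a membrane receptor of this route, was at 71.4, 46.1 and 32.4 CPM in Sirt5+/+ and 14.6, 14.97 and 9.06 CPM in Sirt5-/-, with a log2 change of -1.96 ± 0.35. Pex19, the cytosolic chaperone, was at 88.5, 65.8 and 31.4 CPM against 23.8, 22.2 and 21.8 CPM, with -1.46 ± 0.37. Pex3, its docking partner in the membrane, was the steadiest of them, at 13.2, 11.9 and 12.97 CPM against 6.59, 6.84 and 7.15 CPM, with -0.89 ± 0.22. Their adjusted p-values by the edgeR quasi-likelihood test were 0.00468, 0.0166 and 0.0148.

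The PEX11 proteins elongate and divide peroxisomes, and their 2 genes held the deepest falls among the Pex genes. Pex11a, the form known to respond to peroxisome proliferators, was at 43.9, 40.5 and 41.7 CPM in Sirt5+/+ and 10.2, 9.54 and 7.51 CPM in Sirt5-/-, 4.63-fold lower (log2 change -2.21 ± 0.23, edgeR adjusted p = 0.00146). Its Sirt5+/+ libraries lay close together in CPM, Sirt5+/+ replicate 3 included. In TPM they were at 22.1, 26.15 and 5.56, against 3.18, 5.75 and 5.24 in Sirt5-/-, so replicate 3 lay within the Sirt5-/- range on that scale. Pex11g was at 25.9, 21.3 and 9.96 CPM against 2.92, 2.73 and 3.73 CPM, 6.12-fold lower (log2 change -2.61 ± 0.38, edgeR adjusted p = 0.00242). For Pex11g, 39.9% of the 31-base words of its transcripts also occur in Gm44775, a gene on the other strand with 20.9 to 112 counts per library, and the strand setting of the counting is not given in the sources used here.

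The core of peroxisomal beta-oxidation held the deepest falls of the 40 genes. Acaa1b, a thiolase that releases acetyl-CoA, was at 666, 404 and 128 CPM in Sirt5+/+ and at 27.2, 34.9 and 23.7 CPM in Sirt5-/-, 14.0-fold lower (log2 change -3.80 ± 0.59, edgeR adjusted p = 0.00295). Leaving out the first Sirt5+/+ library took this log2 change to -3.18, and leaving out the third to -4.17. Ehhadh, the bifunctional hydratase and dehydrogenase, was at 139, 116 and 30.003 CPM against 9.80, 9.76 and 9.80 CPM, 9.71-fold lower (log2 change -3.28 ± 0.53, edgeR adjusted p = 0.00327). In both genes the Sirt5-/- livers lay close together and the Sirt5+/+ livers spread widely, with replicate 3 lowest. Acaa1a, the other thiolase gene, fell less, from 210.3, 138 and 90.5 CPM to 43.0, 42.8 and 39.0 CPM (log2 change -1.82 ± 0.34, edgeR adjusted p = 0.00541).

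The balance of the 2 thiolase genes turned over between the genotypes. Acaa1b TPM was 3.30, 3.12 and 1.35 times Acaa1a TPM in the Sirt5+/+ libraries and 0.612, 0.799 and 0.616 times in the Sirt5-/- libraries, a ratio taken within each library that scaling between libraries does not touch. The 2 genes share sequence, with 40.0% of the 31-base words of Acaa1b found in Acaa1a, so the split of their counts is uncertain. Acox3, an acyl-CoA oxidase of branched chains, did not pass the test, at 31.4, 24.4 and 22.1 CPM against 16.5, 17.5 and 17.8 CPM (log2 change -0.59 ± 0.22, edgeR adjusted p = 0.0717). Its genotypes did not overlap in CPM.

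The auxiliary enzymes, which prepare unsaturated and modified chains, were lower. Pecr, a trans-2-enoyl-CoA reductase, was at 186, 149 and 101 CPM in Sirt5+/+ and 29.6, 29.0 and 21.6 CPM in Sirt5-/-, with a log2 change of -2.44 ± 0.32. Decr2, the peroxisomal dienoyl-CoA reductase, was at 158, 108 and 78.6 CPM against 36.3, 30.96 and 25.7 CPM, with -1.89 ± 0.32. Ech1, a dienoyl-CoA isomerase that is also found in mitochondria, fell less, from 244, 156 and 125 CPM to 80.1, 77.8 and 65.0 CPM, with -1.24 ± 0.32. Their adjusted p-values by the edgeR quasi-likelihood test were 0.00194, 0.00389 and 0.0183.

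The products of shortening leave as free acids or carnitine esters. Crot, the transferase that makes the carnitine esters, was at 134, 218 and 181 CPM in Sirt5+/+ and 60.4, 66.5 and 58.9 CPM in Sirt5-/- (log2 change -1.52 ± 0.28, edgeR adjusted p = 0.00501), and Sirt5+/+ replicate 1 was the lowest of its genotype. Acot4, a thioesterase, was at 10.9, 14.0 and 11.0 CPM against 1.92, 2.29 and 2.098 CPM, 5.67-fold lower (edgeR adjusted p = 0.00148). Acot3, a close relative of Acot4, had at most 19 counts in any library and was not tested.

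In alpha-oxidation, Phyh hydroxylates phytanoyl-CoA and Hacl1 cleaves the product. Phyh was at 1404, 1529.9 and 2289.9 CPM in Sirt5+/+ and 839, 599 and 461 CPM in Sirt5-/-, a log2 change of -1.46 ± 0.42 (edgeR adjusted p = 0.0278), with Sirt5+/+ replicate 3 here the highest of all. Hacl1 was at 84.3, 86.3 and 46.9 CPM against 13.01, 12.6 and 11.5 CPM, a log2 change of -2.55 ± 0.30 (edgeR adjusted p = 0.0017). The fall of Hacl1 was smaller per length, where its TPM was 50.1, 66.8 and 35.9 in Sirt5+/+ and 16.1, 36.8 and 43.7 in Sirt5-/-, with overlapping genotypes. Of the 31-base words of Hacl1, 33.5% occur in other genes, most of them in Gm49387, which had no counts.

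Catalase, which breaks down hydrogen peroxide, and the tested oxidases that produce it fell. Cat was at 2379.7, 2258 and 1566 CPM in Sirt5+/+ and 453, 397 and 322 CPM in Sirt5-/-, 5.29-fold lower (log2 change -2.40 ± 0.40, edgeR adjusted p = 0.00357). Uox, the urate oxidase, was at 1057, 1316 and 548 CPM against 193, 155 and 101 CPM, 6.51-fold lower (edgeR adjusted p = 0.00381). Hao1, the glycolate oxidase, was at 125, 154 and 165 CPM against 39.6, 38.4 and 26.8 CPM, 4.24-fold lower (edgeR adjusted p = 0.00207). In CPM no library of one genotype reached the other in any of these genes, and 24.0% of all genes were lower without overlap. In TPM the genotypes overlapped through Sirt5+/+ replicate 3. That library was at 177 for Cat, against 119, 202 and 188 in Sirt5-/-. For Uox it was at 82.2, against 67.4, 106.7 and 79.7, and for Hao1 at 25.4, against 14.6, 26.5 and 21.5. Dao, the D-amino acid oxidase, had 0 counts in all 6 libraries.

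Of the other matrix enzymes, Ephx2, a soluble epoxide hydrolase found in peroxisomes and cytosol, was at 646, 491 and 338 CPM in Sirt5+/+ and 101, 85.2 and 62.8 CPM in Sirt5-/- (log2 change -2.57 ± 0.37, edgeR adjusted p = 0.00244). Lonp2, the matrix protease, was at 201, 218 and 122 CPM against 44.0, 46.3 and 42.9 CPM (log2 change -2.02 ± 0.30, edgeR adjusted p = 0.0026). The Nudt enzymes hydrolyse coenzyme A and nucleotide cofactors and had log2 changes whose intervals overlap. Nudt7 was at 573, 529 and 293 CPM against 117, 118 and 92.4 CPM, with a log2 change of -2.09 ± 0.36 (edgeR adjusted p = 0.00382). Nudt19 was at 38.4, 33.7 and 28.3 CPM against 15.4, 14.5 and 17.1 CPM, with -1.10 ± 0.22 (edgeR adjusted p = 0.00695). Nudt12 was at 13.3, 26.2 and 65.9 CPM against 18.1, 10.7 and 8.61 CPM, with overlapping genotypes, and did not pass the test (log2 change -1.49 ± 0.56, edgeR adjusted p = 0.0714). The high Nudt12 value was again in Sirt5+/+ replicate 3, and when it was left out the log2 change was -0.62.

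Ether lipid synthesis starts in the peroxisome, where GNPAT acylates dihydroxyacetone phosphate, AGPS exchanges the acyl chain for an alcohol, and FAR1 in the membrane supplies that alcohol. Agps was at 6.83, 9.39 and 11.4 CPM in Sirt5+/+ and 18.2, 23.8 and 26.8 CPM in Sirt5-/-, 2.51-fold higher (log2 change 1.33 ± 0.27, edgeR adjusted p = 0.00758). Far1 was at 1.28, 4.04 and 8.39 CPM against 11.1, 15.8 and 18.7 CPM, 3.48-fold higher (log2 change 1.80 ± 0.57, edgeR adjusted p = 0.0409). In both genes all 3 Sirt5-/- libraries lay above all 3 Sirt5+/+ libraries, in CPM and in TPM. The nearest Sirt5+/+ library was the third in CPM and the second in TPM. Such a separation upwards was seen in 25.8% of all genes.

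Gnpat ran the other way in its values, at 37.0, 26.6 and 13.8 CPM in Sirt5+/+ and 12.5, 14.0 and 13.4 CPM in Sirt5-/-. Its genotypes overlapped through Sirt5+/+ replicate 3 and it did not pass the test (log2 change -0.96 ± 0.34, edgeR adjusted p = 0.0594). Without that library it did, with a log2 change of -1.20. The call of Agps held in each alternative run, while that of Far1 was lost in 4 of the 6 fits that leave out 1 library, namely those without the second Sirt5+/+ library or without any one of the Sirt5-/- libraries, where its edgeR adjusted p reached 0.133. Leaving out the third Sirt5+/+ library raised the log2 change of Far1 to 2.55, and leaving out the first lowered it to 1.35.

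**Figure D3:**
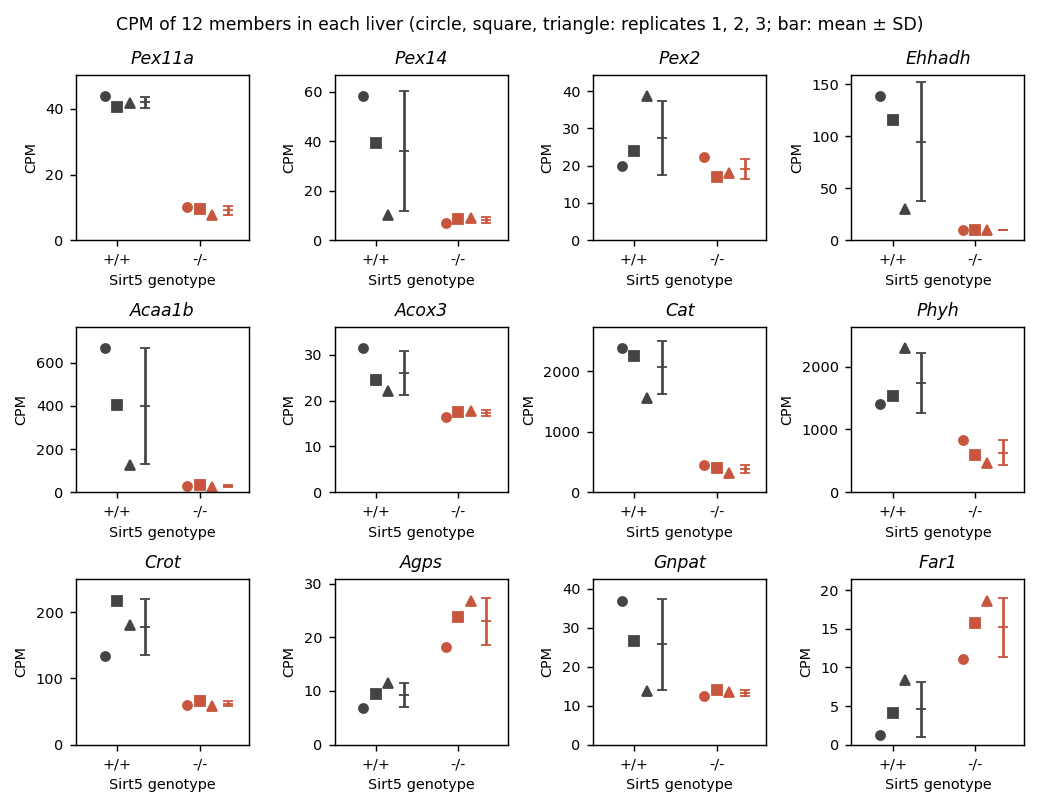
CPM of 12 genes in each liver, with axes from 0; circles, squares and triangles are replicates 1, 2 and 3 and bars are the mean ± SD of 3 livers. On this scale Ehhadh and Acaa1b spread widely in Sirt5+/+ and little in Sirt5-/-, and Pex11a is even within each genotype. Pex2 and Gnpat overlap, and Agps and Far1 are higher in Sirt5-/-.

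Of the 5 membrane genes 3 fell, Far1 rose and Abcd2 did not pass the test. Pxmp2, a channel protein, was at 96.7, 72.2 and 21.4 CPM in Sirt5+/+ and 6.65, 10.3 and 9.64 CPM in Sirt5-/-, 7.16-fold lower (log2 change -2.84 ± 0.52, edgeR adjusted p = 0.00489). Pxmp4 was at 75.4, 62.0 and 67.5 CPM against 26.0, 22.6 and 20.5 CPM, 2.97-fold lower (edgeR adjusted p = 0.00253). Mpv17l, a relative of Pxmp2, was at 22.1, 21.8 and 17.9 CPM against 5.37, 3.94 and 3.73 CPM, 4.77-fold lower (edgeR adjusted p = 0.00162). Abcd2, a transporter of very long chain acyl-CoA, lay near the floor, at 0.332, 1.11 and 1.18 CPM against 0.233, 1.10 and 0.745 CPM, with a 95% interval of its log2 change from -1.87 to 1.37 that covers changes in both directions. Acot12, a cytosolic acetyl-CoA thioesterase, was at 55.5, 62.6 and 45.3 CPM against 15.7, 14.6 and 9.97 CPM, 4.06-fold lower (edgeR adjusted p = 0.00206).

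Set side by side, the Pex genes and the matrix enzymes fell by amounts whose ranges overlap. Of 13 Pex genes 10 were lower and 3 not called, with a median log2 change of -1.87 and a range from -2.61 to -0.52. Of 21 tested matrix enzymes 17 were lower, 1 higher and 3 not called, with a median of -2.02 and a range from -3.80 to 1.33. The 6 membrane or cytosolic genes had 4 lower, 1 higher and a median of -1.80. The difference between the Pex and matrix medians was not tested. With library totals the medians were -1.26 for the Pex genes and -1.45 for the matrix enzymes. On that scale 1 Pex gene (Pex11g) and 7 matrix enzymes (Acaa1b, Cat, Ehhadh, Ephx2, Hacl1, Pecr, Uox) were called lower, against 2.2% of all genes.

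Most of the calls of lower genes did not hang on 1 library. Of the 31, 24 were called in all 6 fits that leave out 1 library, and the others were Pex3, Pex14, Pex19, Pex26, Ech1, Phyh and Nudt19. Single fits of this kind called 7.21 to 23.4% of all genes lower. The share of all genes called lower in all 6 was not counted, so the 24 have no background beside them. In 19 of the 31 Sirt5+/+ replicate 3 was more than 1.5-fold below the mean of the other Sirt5+/+ libraries, in 11 it was within 1.5-fold and in 1 above. The authors' deposited table gave 34 of the 40 tested genes as lower and 2 as higher at an adjusted p under 0.05, where it gave 19.4% of the tested genes as lower and 20.0% as higher, and it added Pex13, Nudt12 and Gnpat to the lower ones. DESeq2, run on the same counts, called 33 of the 41 genes it tested lower and 2 higher, against 16.4 and 16.9% of all genes.

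Per length, Phyh and Cat led the pathway in Sirt5+/+, with mean TPM of 1085 and 774, followed by Uox at 543 and Nudt7 at 469. Phyh and Cat together made 37.0, 40.7 and 52.7% of the summed TPM of the 42 genes in the Sirt5+/+ libraries and 50.9, 45.2 and 43.7% in the Sirt5-/- libraries, and these shares overlapped between genotypes. In the order of the 42 genes by mean TPM, Ehhadh went down from rank 18 to 34 and Pex7 from 23 to 33, while Pex2 went up from 28 to 16 and Far1 from 39 to 29. Acaa1b went from rank 5 to 13. The summed TPM of the 42 genes was 5772, 6745 and 1328 in Sirt5+/+ and 1149, 1833 and 1694 in Sirt5-/-, so Sirt5+/+ replicate 3 lay within the Sirt5-/- range on that scale.

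Cell type markers moved with the same comparison. The hepatocyte markers, 19 genes such as those of clotting factors, were lower in 15 of 19 (17.1% of all tested genes were). Their median log2 change was -1.95, and their summed level was 109281 to 158428 CPM in Sirt5+/+ and 25790 to 47231 CPM in Sirt5-/-. Macrophage markers summed to 385 to 512 CPM in Sirt5+/+ and 1552 to 3095 CPM in Sirt5-/- (6 of 10 higher, 2 lower), stellate cell and fibroblast markers to 419 to 701 against 2229 to 2426 CPM (5 of 10 higher), and cholangiocyte markers to 127 to 432 against 783 to 861 CPM (3 of 10 higher). T and NK cell markers summed to 4.68 to 8.91 against 29.6 to 35.2 CPM (7 of 9 tested higher), B cell markers to 11.8 to 17.6 against 45.1 to 59.9 CPM (2 of 6 higher), and endothelial markers to 96.7 to 153 against 63.9 to 77.5 CPM (4 of 8 lower). Of 7 neutrophil markers 2 were high enough to be tested and 1 was higher. The share of all tested genes called higher was 17.4%. With library totals 3 of 19 hepatocyte markers were lower, with a median log2 change of -1.39, and 0 of 8 endothelial markers were, against 2.2% of all genes. In bulk tissue, fewer hepatocytes and less peroxisomal RNA per hepatocyte cannot be told apart.

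Scaled instead to the mean log2 level of the hepatocyte markers in each library, the Pex genes had a median log2 change of 0.092 and the matrix enzymes of -0.094, beside 1.80 for all tested genes. Ehhadh and Acaa1b were the 2 genes still called lower on this scale, with log2 changes of -1.26 and -1.78 (edgeR adjusted p = 0.0239 and 0.00493), against 0.547% of all genes. Called higher were 7 of the 40, Agps, Far1, Acox3, Pex2, Pex13, Gnpat and Pex3, against 72.9% of all genes. The part of cell composition in the falls of the pathway was not tested.

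Of 33 further peroxisomal genes, 32 were tested and 21 were lower, with a median log2 change of -1.43, beside 17.1% of all tested genes lower. With library totals 6 were lower (2.2% of all genes), and with hepatocyte marker scaling 1 was lower and 10 higher (0.547 and 72.9% of all genes). With TMM factors none was higher by edgeR, nor by DESeq2, and 0 of those with a positive change had an unadjusted p under 0.05. Those with the smallest p were Slc27a2, a very long chain acyl-CoA synthetase (612 ± 86.7 CPM in Sirt5+/+ and 110.1 ± 22.7 CPM in Sirt5-/-, SD, n = 3 each, log2 change -2.47), Amacr, a racemase for branched chains and bile acid precursors (-2.01), and Gstk1, a glutathione transferase (-2.04).

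PPAR alpha is the nuclear receptor through which fatty acids and fibrates raise peroxisomal beta-oxidation in rodent liver. A list of 24 genes held Ppara, its dimer partner Rxra, the co-activator Ppargc1a and genes known as targets. Of these 18 were lower and 1, Vnn1 (named after its value was seen), was higher, with a median log2 change of -1.79, beside 17.1 and 17.4% of all tested genes. With library totals 2 were lower and 1 higher, against 2.2 and 16.5% of all genes. With hepatocyte marker scaling 1 was lower and 2 higher, against 0.547 and 72.9% of all genes. None of the 24 is among the 42 genes or the 33 further peroxisomal genes. Those with the smallest p were Creb3l3, a transcription factor (176 ± 48.2 to 34.5 ± 4.60 CPM, log2 change -2.35), Cyp4a14, a fatty acid hydroxylase (11.9 ± 2.54 to 0.786 ± 0.502 CPM, -3.85), and Cpt2, a mitochondrial carnitine transferase (-1.84). Ppara itself, named after its values were seen, did not pass the test, at 19.5, 27.1 and 81.9 CPM in Sirt5+/+ and 26.5, 11.2 and 5.44 CPM in Sirt5-/- (log2 change -1.57 ± 0.68, edgeR adjusted p = 0.108). Its genotypes overlapped, and the highest value was in Sirt5+/+ replicate 3.

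**Figure D4:**
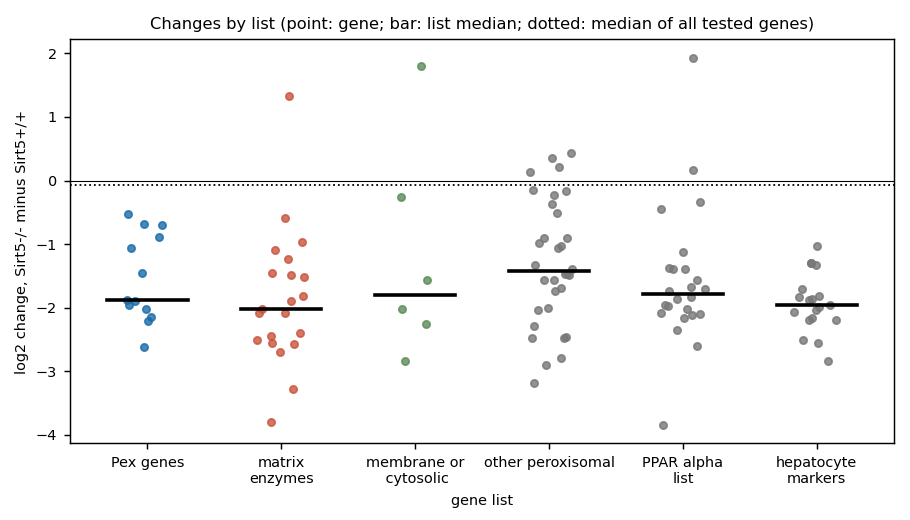
Log2 change of each tested gene, Sirt5-/- minus Sirt5+/+, for the 3 groups of peroxisomal genes, the further peroxisomal genes, the PPAR alpha list, and hepatocyte markers. Bars are the list medians, -1.87 for Pex genes, -2.02 for matrix enzymes and -1.95 for hepatocyte markers, and the dotted line is the median of all tested genes.

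PPAR alpha binds as a dimer with RXR to a direct repeat of the element AGGTCA spaced by 1 base. The RefSeq windows from 250 bases before to 50 after the gene start on GRCm38.p6 were matched by symbol for 35 of the 42 genes and searched on both strands. The repeat, searched as AGGNCA, then any 1 base, then AGGNCA again, was in 0 of the 35 windows and in 122 of 27025 windows of all genes (0.451%). The single element AGGTCA, which also occurs inside some forms of the repeat, was in 7 of the 35 (20.0%) and in 18.1% of all windows. These matches describe the letters of this window only.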

How the data were processed

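Bulk RNA-seq of 6 livers was read from 1 deposited table. The submitters' processing notes name HISAT2 2.1.0, RSEM 1.3.1 and DESeq2 1.24.0 without options; the genome build is not given in the sources used here. IDs and symbols of 55450 of 55536 genes are those of GENCODE M21. The expected counts (estimated reads per gene, unscaled) and the TPM values (per length and library total) were made by the authors and used as deposited, per the file headers. The log2 fold changes and p-values that the authors deposited are those of their own comparison and were used only where named.

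Expected counts were rounded, filtered with edgeR 4.0.16 filterByExpr (minimum count 10, minimum total 15, 14799 genes kept) and scaled with TMM factors. Sirt5-/- was compared with Sirt5+/+ by the quasi-likelihood F test with genotype as the only term, two-sided, with Benjamini-Hochberg adjustment over the 14799 genes and a threshold of 0.05. The SE was taken as the size of the log2 change over the root of its F value, and CPM use TMM factors. The common biological coefficient of variation was 0.373. The floor of 3 counts covers counting error only. Shared sequence is the percent of 31-base words of a gene's transcripts found in other genes.

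All 42 genes are named, with Sirt5, at most the 3 genes of smallest p of each other list, and genes that share sequence with a member. The list counts include some genes whose own values are not reported here. The members and lists were chosen with earlier results of these data known, so counts and medians are descriptions and no test was made over a list. Replicate numbers come from the titles, which state no pairing of the samples. Between genotypes, same-numbered libraries correlated at -0.19, 0.11 and -0.20 in their deviations from the group means. With 3 libraries in each group these correlations cannot settle whether samples were paired, and the main fit took them as unpaired. The steps were tested on simulated data. Alternatives were other scalings, filters and thresholds, DESeq2 1.42.0, limma-voom 3.58.1, the replicate block, removal of mitochondrial genes and leaving out libraries.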

Additional observations from a re-analysis of the deposited data

How the results depend on the processing

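With 3 livers a genotype the intervals of single genes are wide, that of Abcd2 among the widest. Scaling moved the results most; the cause was not tested. With library totals 9 of the 40 genes were lower and 2 higher, against 2.2 and 16.5% of all genes. The 9 were 1 Pex gene, 7 matrix enzymes and 1 membrane gene. Also lower were 6 further peroxisomal genes and 2 of the PPAR alpha list. The Pex median was then -1.26 and the matrix median -1.45, and Acox3 (0.026), Pex2 (0.23) and Abcd2 (0.54) turned positive. With hepatocyte marker scaling 2 genes were lower and 7 higher, against 0.547 and 72.9% of all genes. Lower were 0 Pex genes, 2 matrix enzymes and 0 membrane or cytosolic genes. On that scale 1 further peroxisomal gene was lower and 10 higher, 1 gene of the PPAR alpha list was lower and 2 higher, and the medians were 0.092 (Pex) and -0.094 (matrix). The log2 changes that turned positive there were Pex5 0.092, Pex13 1.16, Pex2 1.26, Pex10 1.12, Pex26 0.82, Pex3 1.01 and Pex19 0.53 among the Pex genes, Acox3 1.34, Acaa1a 0.15, Ech1 0.70, Decr2 0.034, Crot 0.32, Phyh 0.29, Nudt12 0.14, Nudt19 0.83 and Gnpat 1.04 among the matrix enzymes, and Abcd2 1.58 and Pxmp4 0.30 in the membrane. At a threshold of 0.01, which 7.98% of all genes passed as lower and 9.56% as higher, 6 Pex genes were lower. At that threshold 1 of the 40 genes was higher, and 0 genes of the PPAR alpha list were higher. Leaving out 1 library at a time gave 24 to 33 genes lower and 1 to 2 higher, where 7.21 to 23.4% of all genes were lower, and 6 to 10 Pex genes, 14 to 19 matrix enzymes, 13 to 21 further peroxisomal genes and 13 to 18 of the PPAR alpha list lower. The Pex median then ran from -1.94 to -1.52, the matrix median from -2.05 to -1.88 and Abcd2 from -0.74 to 0.10. Without Sirt5+/+ replicate 3 and Sirt5-/- replicate 1, which hold the most mitochondrial reads, Abcd2 was at 0.38. With the replicate block, on numbers that are not stated to pair the samples, 28 genes were lower (11.3% of all genes), 8 of them Pex genes.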
